A study of Homo sapiens with 8 samples.

Results

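GFP Dox against GFP DMSO is the control comparison of a ribosome profiling experiment in G401 cells, a rhabdoid tumor line of kidney origin that lacks SMARCB1. The libraries are those that the labels name GFP Dox and GFP DMSO, and they are 4 of the 8 ribosome profiling libraries of the series. All of them come from G401 cells that carry GFP under a doxycycline-responsive Tet-On promoter. The GFP Dox libraries (Dox 1 and Dox 2) come from cells given 0.1 µg/mL doxycycline for 12 h, and the GFP DMSO libraries (DMSO 1 and DMSO 2) from cells given DMSO for the same time. The remaining 4 libraries, from G401 cells with SMARCB1 in place of GFP, entered the filter, the scaling and the estimate of the spread. They also entered tests of the mean effect and of the difference between the lines, and some values are set beside them. Plates of a condition were pooled before a library was made, and nothing beyond the statement that the work was done in duplicate describes how separate the replicates were, so p-values measure only the spread between these libraries. Whether the GFP cells are a clone or a mixed population is not stated.

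Doxycycline is a tetracycline, a class of antibiotics that bind the small subunit of the bacterial ribosome. Mitochondrial ribosomes descend from bacterial ones, and tetracyclines are known to slow the synthesis of the respiratory chain subunits that mitochondria encode, which can in turn activate the integrated stress response through ATF4. In a Tet-On system, doxycycline binds a transactivator protein that then switches on the gene of interest, so a line that makes GFP carries the drug, the active transactivator and an inert reporter protein together. Their shares cannot be told apart with these groups, since no library comes from cells without the Tet-On system. The RiboLace method captures ribosomes in the act of translation, and the fragments they protect (footprints) report how many ribosomes sit on each coding sequence, which depends both on the amount of mRNA and on how often it is translated. The RNA-seq of the study was not analysed here. GFP is not in the human annotation that the counts were made on, so its induction has no value in these data.

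No gene met the threshold for a difference between GFP Dox and GFP DMSO, which was a Benjamini-Hochberg adjusted p-value below 0.05 and a fold change above 2. Among the 11097 genes tested, 0 were called by edgeR's quasi-likelihood test (0% of genes), and 0 were called by DESeq2. At an unadjusted p-value below 0.05, edgeR had 144 genes higher (1.3%) and 96 lower (0.865%) in GFP Dox, 240 in all, and DESeq2 had 251. The genes with the smallest p-values and separated groups included TNFRSF11A, SPOCK2, RUNX3 and ANAPC2 on the higher side and BEND6, ZDHHC11, ZNF431 and COMMD2 on the lower side. TNFRSF11A and SPOCK2 had few counts outside GFP Dox, so their place among the genes tested rested on GFP Dox itself. The smallest Benjamini-Hochberg adjusted p-value over all genes tested was 1 in edgeR's quasi-likelihood test. The mitochondrially encoded genes had a median log2 fold change of -0.02, and 0 of these 13 genes were called. Where the libraries differed most, the difference lay between the replicates of GFP Dox and not between Dox and DMSO.

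The precision of the comparison varied from gene to gene. The 95% interval of the fold change, from the spread that edgeR estimated, lay within a 2-fold change in either direction for 6430 genes (57.9%) and within a 4-fold change for 9860 genes (88.9%). For the remaining genes a 4-fold change in at least 1 direction lay inside the interval, so a difference of that size was within reach of the error in these libraries.

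The GFP libraries differed in depth and in where their reads aligned. Counts on genes numbered 6933132 in Dox 1, 6429574 in Dox 2, 12001296 in DMSO 1 and 14000039 in DMSO 2, and genes with at least 1 count numbered 11602, 12145, 12403 and 12662. Alignments to more than 1 place made up 56.4% of the entries in Dox 1, 30.5% in Dox 2, 25.6% in DMSO 1 and 29.3% in DMSO 2. Dox 1 stood apart from the other GFP libraries in this share, and Dox 2 lay close to DMSO. Entries counted on a coding sequence were 25.2% in Dox 1 against 40.4%, 44.8% and 40.9% in Dox 2, DMSO 1 and DMSO 2. Of the uniquely aligned reads, however, 57.8% lay on a coding sequence in Dox 1, against 58.1%, 60.2% and 57.8% in the same order, so that Dox 1 lay with the others once the reads aligned to several places were set aside. The TMM scaling factor of edgeR was 0.872 in Dox 1 and 1.05, 1.01 and 1.03 in Dox 2, DMSO 1 and DMSO 2. The part of the multiply aligned reads in any gene's value was not tested, because the deposited counts do not hold those reads.

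**Figure D1:**
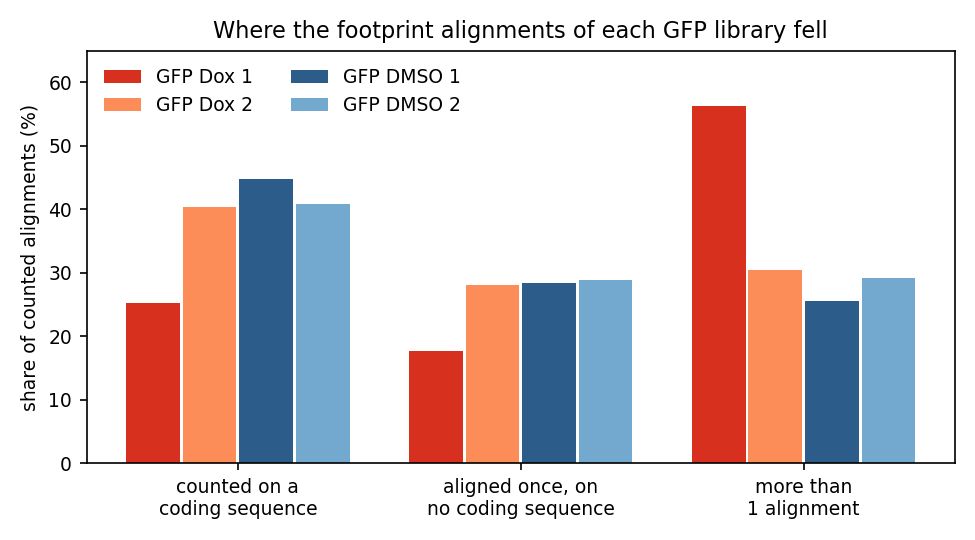
Share of the counted entries of each GFP library (vertical axis, percent) that lay on a coding sequence, that aligned once but on no coding sequence, and that aligned to more than 1 place, with 1 bar per library. GFP Dox 1 reached 56.4% in the last class, above the 25.6% to 30.5% of the other libraries.

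The same library stood apart gene by gene. Among the 7824 genes with a mean of at least 100 counts in the GFP libraries, 433 lay more than 2-fold from the DMSO mean in Dox 1 and 8 in Dox 2, and 0 did so in the same direction in both. Between the DMSO libraries 16 of these genes differed by more than 2-fold, and between the Dox libraries 774 did. The median size of the log2 difference from the DMSO mean was 0.36 in Dox 1 and 0.21 in Dox 2, beside 0.23 between DMSO 1 and DMSO 2. The value of Dox 2 was close to that between the DMSO libraries, and the value of Dox 1 was larger. These measures are not alike, since a difference between 2 single libraries tends to be wider than that of 1 library from a mean of 2. The same holds for the counts of genes past 2-fold. The Dox libraries also held fewer counts than the DMSO libraries. The genes and lists below are therefore given by library, and both Dox libraries are set against the same DMSO libraries. These differences were taken on log2 of CPM plus 0.5, where CPM is the count of a gene scaled to the library's TMM-adjusted total.

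Of the labels, the counts of SMARCB1 could check SMARCB1 Dox only, and they cannot tell GFP Dox from GFP DMSO. SMARCB1 (chromosome 22 of GRCh38, 23786931 to 23838009) had 0 counts in each of the 4 GFP libraries and 0 in the SMARCB1 DMSO libraries, while the SMARCB1 Dox libraries held 2553 and 1750. Of 12 markers of a rhabdoid cell, KRT8, a keratin of simple epithelia that rhabdoid tumors also make, was the most abundant, and KRT18, VIM and NES were abundant as well. KRT8 stood at 2870 CPM in Dox 1, 2004 in Dox 2, 2180 in DMSO 1 and 2309 in DMSO 2. The summed level of the 12 markers was 5828 and 6060 CPM in Dox 1 and Dox 2 and 5653 and 6415 CPM in DMSO 1 and DMSO 2, so the groups overlapped. CD99, TWIST1 and SNAI2 were at 0, CDH2 had 1 count in Dox 1 and 0 in the others, and CD44 had 3 in Dox 2, 1 in DMSO 1 and 0 in the others.

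Kidney epithelial, endothelial and erythroid markers were near 0, and leukocyte markers rested on a single gene. The 14 kidney epithelial markers summed to 2.32 and 1.03 CPM in Dox 1 and Dox 2 and to 0.905 and 1.32 CPM in DMSO 1 and DMSO 2, with 7 of them at 0 in the 4 libraries, PAX8 and UMOD included, and EPCAM as the most abundant. The 8 endothelial markers summed to between 0.486 and 1.07 CPM, with VWF the most abundant and KDR, TEK, TIE1 and CLDN5 at 0. Of the 7 erythroid markers 6 were at 0, and HBB reached 0.148 CPM in Dox 2. Leukocyte markers came to 11.9, 37.9, 23.5 and 31.8 CPM in Dox 1, Dox 2, DMSO 1 and DMSO 2, nearly all of it from CD68, a lysosomal protein, while PTPRC, CD3E, CD14 and LYZ were at 0. Muscle markers summed to 501, 387, 369 and 453 CPM in the same order, with the actin-binding protein TAGLN leading and MYOD1, MYOG and ACTC1 at 0. TNNT2, the cardiac troponin T, had 156, 109, 127 and 138 CPM of this, so muscle markers were not near 0.

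Genes higher in both Dox libraries than in both DMSO libraries numbered 1459 of those tested (13.1%), and genes lower in both numbered 1461 (13.2%). Of the 240 genes at an unadjusted p-value below 0.05, 104 lay above both DMSO libraries and 96 below both, where the same Dox libraries set both the p-value and the side. The 12 genes with the smallest p-values on each side, among those with separated groups, are described next. The 12 higher genes were TNFRSF11A, PTPN21, SPOCK2, HSD17B2, RUNX3, ATL1, TENT5B, ANAPC2, PHF13, ZFPM1, FOXC1 and NKRF.

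Some of the higher genes had very few footprints in DMSO. TNFRSF11A, the receptor RANK that drives the formation of osteoclasts, had 16 and 11 counts in Dox 1 and Dox 2 against 0 and 1 in DMSO 1 and DMSO 2. Scaled for depth, the pooled counts gave a ratio of 56.0 with a 95% exact binomial interval of 9.23 to 2290. SPOCK2, a secreted proteoglycan of the extracellular matrix, had 15 and 10 counts against 0 and 2, and the same ratio was 25.9 (interval 6.46 to 226). By CPM, Dox 1 stood above Dox 2 in both genes, at 2.65 and 1.63 CPM for TNFRSF11A and 2.48 and 1.48 CPM for SPOCK2. Such intervals cover counting error only. Both genes were chosen for small p-values on these same libraries, so the ratios and intervals restate the choice and are no separate evidence. In the SMARCB1 line SPOCK2 had 4 and 1 counts in Dox and 0 and 1 in DMSO, and TNFRSF11A had 8 and 8 against 0 and 10. Their passing the filter on low counts therefore rested on GFP Dox itself. RUNX3, a transcription factor of the runt family, had 1.99 and 1.18 CPM in Dox 1 and Dox 2 against 0.247 and 0.139 CPM in DMSO 1 and DMSO 2, with a log2 fold change of 2.97 (standard error 0.93) from 12, 8, 3 and 2 counts. ATL1, a GTPase that fuses membranes of the endoplasmic reticulum, had 1.82 and 2.07 CPM against 0.329 and 0.486 CPM, a log2 fold change of 2.21 (standard error 0.72). In ATL1 the Dox libraries lay close together and above DMSO, on 11 and 14 counts.

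Genes with more footprints showed smaller differences. ANAPC2 (chromosome 9, 137174784 to 137188560), the cullin subunit of the anaphase-promoting complex, had 44 and 43.0 CPM in Dox 1 and Dox 2 and 23.3 and 27.9 CPM in DMSO 1 and DMSO 2. Its Dox libraries were nearly equal and both lay above DMSO, at 43.5 ± 0.685 CPM (SD, n = 2) against 25.6 ± 3.29 CPM (SD, n = 2). The log2 fold change was 0.76 (standard error 0.26, 95% interval 0.22 to 1.31). ZFPM1, a cofactor of GATA transcription factors, had 9.27 and 9.32 CPM against 3.21 and 4.24 CPM, a log2 fold change of 1.31 (standard error 0.44). As in ATL1, Dox 2 stood about as high as Dox 1 in both genes.

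In the other higher genes Dox 1 also lay above Dox 2. PTPN21, a tyrosine phosphatase of the cell cortex, had 18.4 CPM in Dox 1 and 7.40 in Dox 2 against 3.87 and 4.52 CPM in DMSO, with a log2 fold change of 1.61 (standard error 0.43). HSD17B2, which oxidizes estradiol to estrone, had 5.13 and 1.92 CPM against 0.987 and 0.973 CPM, a log2 fold change of 1.82. TENT5B, of a family of noncanonical poly(A) polymerases, had 43.2 and 16.9 CPM against 11.8 and 14.5 CPM, a log2 fold change of 1.19. In these 3 genes Dox 2 lay between Dox 1 and the higher DMSO library, nearest to DMSO in TENT5B. Without Dox 1 the log2 fold changes were 0.81 in PTPN21, 0.96 in HSD17B2 and 0.36 in TENT5B. PHF13, a chromatin reader, had 41.4 and 25.6 CPM against 18.9 and 17.2 CPM, and the forkhead factor FOXC1 had 15.6 and 8.58 CPM against 5.92 and 5.91 CPM, with log2 fold changes of 0.89 and 1.02. NKRF, a repressor of NF-kappaB targets, had 76.1 and 45.4 CPM against 33.4 and 36.2 CPM, a log2 fold change of 0.80. Since Dox 2 took part in the choice of these genes, its lying above DMSO in all 12 was set by the choice and is no separate evidence.

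**Figure D2:**
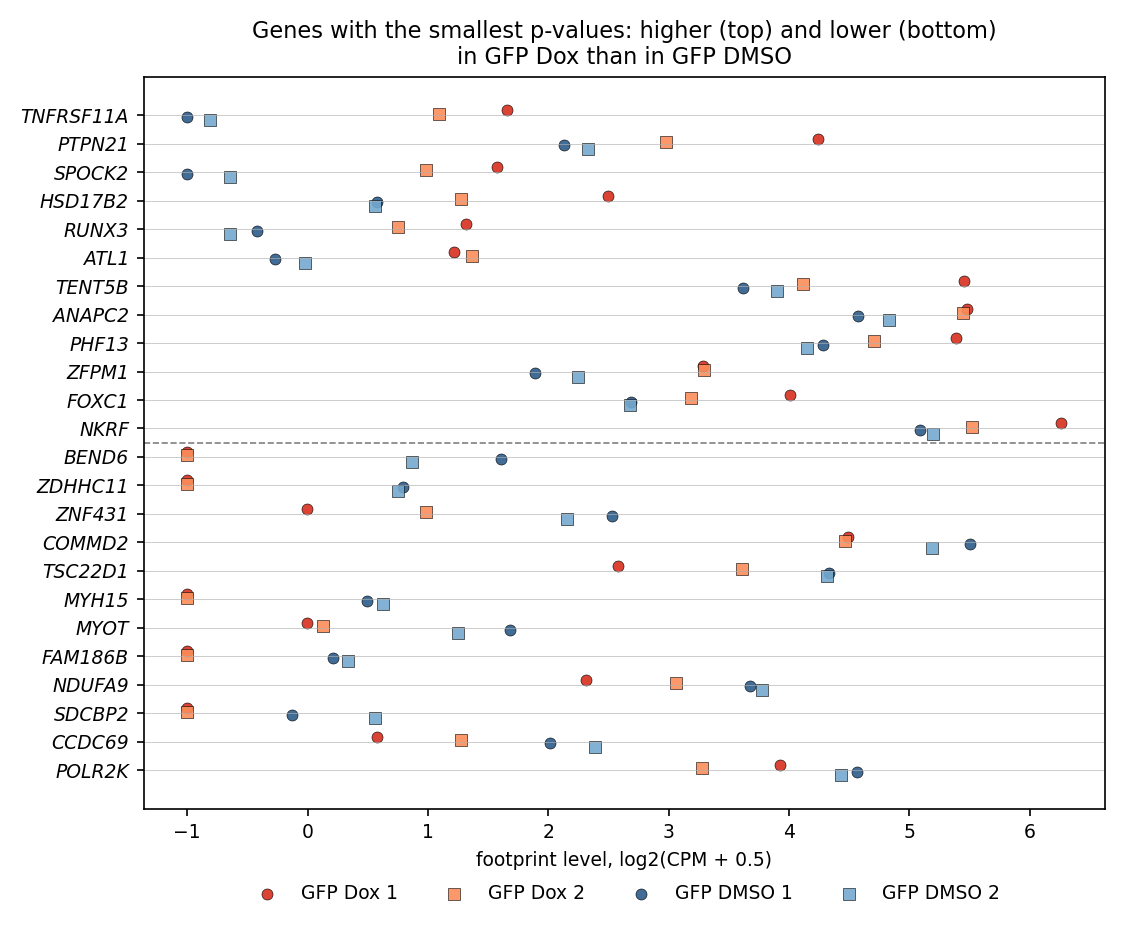
Footprint level of the 24 genes with the smallest p-values and separated groups, as log2(CPM + 0.5) on the horizontal axis, with 1 point per GFP library, genes higher in GFP Dox above the dashed line and genes lower below it. In ANAPC2 and COMMD2 the Dox points nearly coincide, in PTPN21 and TENT5B Dox 1 lies apart from Dox 2, and in 5 lower genes both Dox libraries sit at 0 CPM, the leftmost value of -1.

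Of the 12 lower genes, 5 had 0 counts in both Dox libraries. BEND6, a BEN domain protein that represses Notch targets (chromosome 6, 56955107 to 57027346), had 31 and 19 counts in DMSO 1 and DMSO 2 and 0 in each Dox library, which was at least 8.04-fold lower when a floor of 3 counts is set over the pooled Dox libraries. ZDHHC11, a protein palmitoyltransferase, had 15 and 17 counts in DMSO and was at least 5.14-fold lower. The myosin heavy chain gene MYH15 had 11 and 15 counts in DMSO and was at least 4.18-fold lower. The scarcity of reads in the Dox libraries sets these bounds, and without Dox 1 they came to 4.24 for BEND6, 2.72 for ZDHHC11 and 2.21 for MYH15. FAM186B had 8 and 11 counts and SDCBP2, a relative of the scaffold protein syntenin, had 5 and 14 counts in DMSO. By the same floor each was at least 3.05-fold lower, or 1.61-fold without Dox 1. The bounds in these 5 genes leave out the error of the DMSO counts and the spread between libraries. edgeR's intervals reached Dox to DMSO ratios of 0.264 in MYH15, 0.351 in FAM186B and 0.386 in SDCBP2, smaller drops than the bounds. In BEND6 and ZDHHC11 they ended at 0.0822 and 0.159, larger drops than the bounds. The genes were chosen for small p-values on these same libraries, so the bounds are no separate evidence. BEND6 was not low under doxycycline in the SMARCB1 line, where the Dox libraries held 51 and 23 counts and the DMSO libraries 15 and 13.

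The other lower genes had footprints in every GFP library. COMMD2 (chromosome 3, 149738472 to 149752495), a member of the COMMD family that takes part in recycling proteins from endosomes, had 22.0 and 21.6 CPM in Dox 1 and Dox 2 and 44.8 and 36.0 CPM in DMSO 1 and DMSO 2. Its Dox libraries lay together below DMSO, at 21.8 ± 0.290 CPM (SD, n = 2) against 40.4 ± 6.26 CPM (SD, n = 2). The log2 fold change was -0.89 (standard error 0.27, 95% interval -1.48 to -0.30). ZNF431, a KRAB zinc finger repressor, had 0.496 and 1.48 CPM against 5.27 and 3.96 CPM, a log2 fold change of -2.19 (standard error 0.64). The myotilin gene MYOT, a component of the muscle Z-disc, had 3 and 4 counts in Dox against 33 and 27 in DMSO, a log2 fold change of -2.04. In these genes the Dox libraries were both low.

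POLR2K, a small subunit shared by the nuclear RNA polymerases, had 14.7 and 9.17 CPM in Dox 1 and Dox 2 against 23.2 and 21.1 CPM in DMSO, a log2 fold change of -0.89. Dox 2 was farther from DMSO than Dox 1 in this gene. The leucine zipper gene TSC22D1 had 5.46 and 11.7 CPM against 19.7 and 19.5 CPM, and CCDC69 had 0.993 and 1.92 CPM against 3.54 and 4.72 CPM, with log2 fold changes of -1.18 and -1.48. NDUFA9, a subunit of complex I of the respiratory chain, had 4.47 and 7.84 CPM against 12.3 and 13.2 CPM, a log2 fold change of -1.04. In these 3 genes Dox 1 was the lower of the Dox libraries. Here too the choice itself placed Dox 2 below DMSO.

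The 24 genes were also read in the SMARCB1 line, which shares doxycycline and the Tet-On system but no library with the GFP comparison. Of the 12 genes higher in GFP Dox, 9 had a log2 fold change above 0 there, where 47.2% of all genes did, and of the 12 lower genes 7 had one below 0, where 52.6% of all genes did. At an unadjusted p-value below 0.05 in the same direction, there was 1 of the higher genes, TENT5B (log2 fold change 0.94 in the SMARCB1 line), and 0 of the lower genes in edgeR's test, beside 345 of all genes tested that were higher (3.11%) and 207 that were lower (1.87%) in that line. For the difference between the responses of the lines, edgeR called 0 genes and had 443 at an unadjusted p-value below 0.05, DESeq2 called 1, the induced gene SMARCB1, and edgeR called 15 when genes with low counts were kept.

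Dox 2 alone was set against DMSO with the spread taken from the other groups, since a lone library is then assumed to vary as they do. edgeR called 0 of 11611 genes (0%), and 167 had an unadjusted p-value below 0.05, of which 83 were higher (0.715%) and 84 lower (0.723%). The smallest p-values belonged to ASB8, a substrate adaptor of ubiquitin ligases, TBXA2R, the thromboxane receptor, and POLR2K, genes that were named here after their values were seen. ASB8 had 8.44 CPM in Dox 1, 25.1 in Dox 2, 9.30 in DMSO 1 and 6.81 in DMSO 2, so that Dox 2 stood alone above the others. Without Dox 1 it had a log2 fold change of 1.64, with a standard error of 0.36 and edgeR's quasi-likelihood test gave a Benjamini-Hochberg adjusted p of 1. The genes with at least 100 counts that lay more than 2-fold from the DMSO mean in Dox 2 were ASB8, FASTK, CD70 and SCARF2 on the higher side and POLR2K, MGST1, RPP40 and ZNF732 on the lower side. FASTK, the founding member of a family of mitochondrial RNA regulators, had 9.43 CPM in Dox 1, 20.7 in Dox 2, 6.99 in DMSO 1 and 9.10 in DMSO 2.

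Mitochondrially encoded genes bear on the known target of the drug, the mitochondrial ribosome. All 13 passed the filter on low counts, 6 had a log2 fold change above 0 and 7 below, and 52.9% of all genes lay above 0. Their median log2 difference from DMSO was -0.26 in Dox 1, with 9 genes below DMSO, and 0.14 in Dox 2, with 10 genes above. Between DMSO 1 and DMSO 2 the median difference was -0.28. Together they held 0.473% of the counts in Dox 1, 0.411% in Dox 2, 0.318% in DMSO 1 and 0.576% in DMSO 2. The Dox libraries therefore lay on opposite sides of DMSO by their medians, and by their share of counts both lay between the DMSO libraries. Most of that share was MT-ND6, and without it the share was 0.0725% in Dox 1, 0.137% in Dox 2, 0.0899% in DMSO 1 and 0.122% in DMSO 2, with Dox 1 below and Dox 2 above both DMSO libraries.

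MT-CO1, the catalytic subunit of cytochrome c oxidase, had 430 and 723 CPM in Dox 1 and Dox 2 against 428 and 622 CPM in DMSO 1 and DMSO 2. The groups overlapped, and the log2 fold change was 0.14 (standard error 0.34, 95% interval -0.60 to 0.87), or -0.29 without Dox 2 and -0.11 without DMSO 1. MT-CYB, the cytochrome b of complex III, had 95.5 and 175 CPM against 128 and 151 CPM, a log2 fold change of -0.05 (standard error 0.43) that was 0.32 without Dox 1 and 0.07 without DMSO 2. The Dox libraries of MT-CYB lay on either side of DMSO. The ATP synthase subunit MT-ATP6 had 5.46 and 6.36 CPM against 7.24 and 9.38 CPM, a log2 fold change of -0.49 (95% interval -1.46 to 0.48), and it alone among the 13 had both Dox libraries below both DMSO libraries. MT-ND3, of complex I, alone had both above, with 18 and 15.2 CPM against 15.1 and 12.6 CPM. Over all genes tested, 13.2% had both Dox libraries below both DMSO libraries and 13.1% had both above, so 1 of 13 in each direction was not more than that share. MT-ATP8, whose reading frame overlaps that of MT-ATP6, had 15.6 and 3.40 CPM against 3.95 and 1.95 CPM, a log2 fold change of 1.68 (standard error 0.70) that was 0.22 without Dox 1. It was the single gene of the 13 with an unadjusted p-value below 0.05, and its groups overlapped, because Dox 2 lay below DMSO 1.

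MT-ND6 had by far the most reads of the 13 genes. Per kilobase of coding sequence it stood at 8759 and 4971 CPM in Dox 1 and Dox 2 and at 4282 and 8423 CPM in DMSO 1 and DMSO 2, while MT-CO1, the next, stood at 279, 469, 277 and 403 CPM per kilobase. The MT-ND6 levels overlapped between the groups, and the log2 fold change was 0.11 (95% interval -0.67 to 0.89), or -0.36 without Dox 1 and -0.30 without DMSO 1. MT-ND6 is the only protein that the light strand of mitochondrial DNA encodes, the strand setting of the counting is not stated, and whether its reads come from ribosomes on its mRNA was not tested. The 95% interval lay within a 2-fold change for 5 of the 13 genes and within a 4-fold change for 12.

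**Figure D3:**
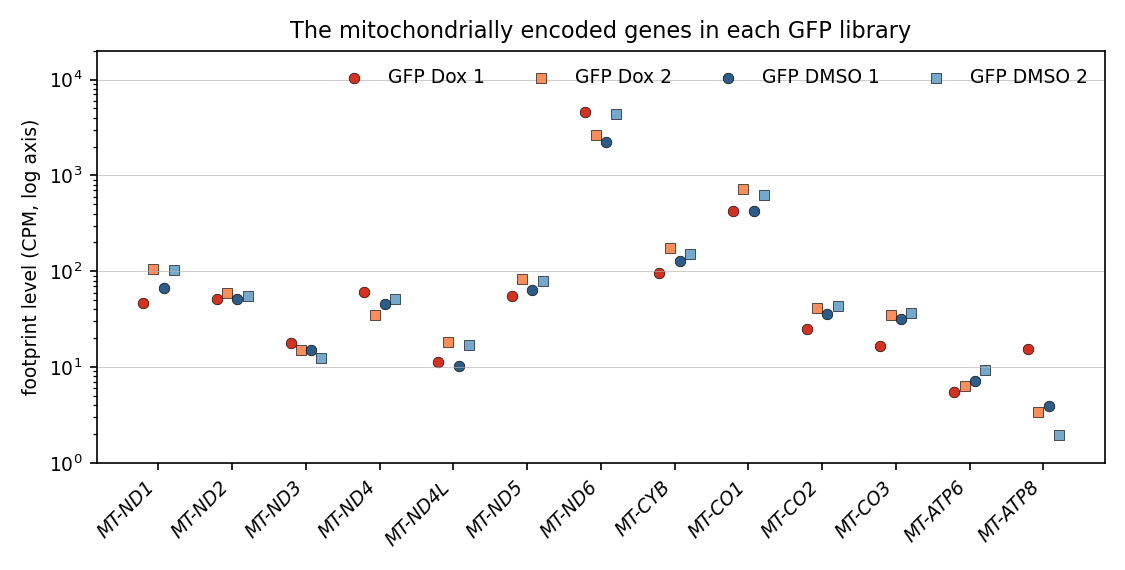
Footprint level of the 13 mitochondrially encoded genes in CPM (vertical log axis), with 1 point per GFP library. MT-ND6 lies highest, at 2248 to 4599 CPM, and in MT-CO1 and MT-CYB the Dox points lie on either side of a DMSO point.

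Nuclear genes of the mitochondrial translation system were also near DMSO. The 81 mitochondrial ribosomal proteins that passed the filter (of 83) had a median log2 fold change of 0.002, with 41 above 0 and 40 below, and a median log2 difference from DMSO of 0.02 in Dox 1 and -0.05 in Dox 2. MRPL34, of the large subunit, was the only one at an unadjusted p-value below 0.05, with 20.9 and 13.3 CPM in Dox 1 and Dox 2 against 7.40 and 10.4 CPM in DMSO and a log2 fold change of 0.94 (standard error 0.36). Both Dox libraries lay above DMSO in MRPL34. The 29 mitochondrial translation and RNA factors (of 30) had a median of -0.06 (by library 0.004 and -0.02), and 1 was at an unadjusted p-value below 0.05. That gene, SLIRP, stabilizes mitochondrial mRNAs together with LRPPRC, and it had 73.5 and 136 CPM against 177 and 162 CPM, a log2 fold change of -0.69 (standard error 0.27). Dox 1 lay much lower than Dox 2 in SLIRP. The 19 mitochondrial chaperones and proteases had a median of 0.05, by library -0.004 and -0.006, and 0 reached that p-value. HSPD1, the chaperonin of the mitochondrial matrix, had 4972 and 3099 CPM against 3331 and 3152 CPM, with Dox 2 below both DMSO libraries and a log2 fold change of 0.32 that was -0.07 without Dox 1.

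The nuclear-encoded respiratory chain was a list with more genes below DMSO than above. Of 79 subunits tested (of 81), 51 had a log2 fold change below 0 and 28 above, with a median of -0.16 beside 0.02 for all genes tested. At an unadjusted p-value below 0.05 there were 2 subunits higher and 2 lower of the 79. Of all genes tested, 1.3% were higher and 0.865% lower at that p-value. The lower subunits were NDUFA9, given before, and NDUFA6. NDUFA6 had 14.4 and 27.8 CPM in Dox 1 and Dox 2 against 44.5 and 32.0 CPM in DMSO, with a log2 fold change of -0.85 (standard error 0.33). The higher ones, described after their values were seen, were NDUFB2, with 146 and 61.5 CPM against 58.2 and 58.5 CPM and a log2 fold change of 0.83 (0.07 without Dox 1), and NDUFA11, with 58.9 and 24.6 CPM against 19.3 and 24.8 CPM and one of 0.92 (0.15 without Dox 1). By library the median log2 difference of the list was -0.31 in Dox 1 and -0.04 in Dox 2. Both Dox libraries lay below both DMSO libraries for 24 of the 79 (30.4%, beside 13.2% of all genes) and above both for 10 (12.7%, beside 13.1%), and no test was made of these counts. The list's median was -0.04 in the fit without Dox 1.

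Targets of ATF4 and of the integrated stress response, a program that slows translation and induces genes of amino acid synthesis and transport, had a median log2 fold change of 0.12. Of 45 genes tested (of 48), 29 lay above 0 and 16 below, and the median was -0.03 without DMSO 1 and 0.23 without DMSO 2. With library size alone as the scaling it was 0.02, where the median of all genes went from 0.02 to -0.06. By library the median log2 difference was 0.03 in Dox 1 and 0.10 in Dox 2. CARS1, the cysteinyl-tRNA synthetase, was the only member at an unadjusted p-value below 0.05, with 102 and 65.1 CPM against 50.2 and 60.5 CPM and a log2 fold change of 0.59 (standard error 0.28). Dox 2 lay just above DMSO 2 in CARS1. ATF3, a stress-induced transcription factor, had 66.5 and 29.6 CPM in Dox 1 and Dox 2 against 36.6 and 25.5 CPM in DMSO, and NARS1, the asparaginyl-tRNA synthetase, had 1204 and 998 CPM against 937 and 1042 CPM. Dox and DMSO overlapped in both. The 24 glycolytic genes had a median of 0.06, by library -0.06 and 0.10, which was -0.06 without DMSO 1, 0.17 without DMSO 2 and -0.08 without Dox 2. None of them was at an unadjusted p-value below 0.05, and GAPDH had 1376 and 1979 CPM against 1286 and 1740 CPM.

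Cytosolic ribosomal proteins were the list in which the Dox libraries differed most. Of the 80 genes tested (of 86), 26 had a log2 fold change above 0 and 54 below, with a median of -0.14. Set against DMSO separately, 64 of the 80 lay below it in Dox 1, with a median log2 difference of -0.51, and 63 of the 80 lay above it in Dox 2, with a median of 0.18, so that the median had opposite signs in the replicates. The difference between DMSO 1 and DMSO 2 had a median of -0.15. Together the ribosomal proteins held 2.17% of counts in Dox 1, 3.20% in Dox 2, 2.80% in DMSO 1 and 2.97% in DMSO 2. The median of the list was 0.17 without Dox 1 and -0.53 without Dox 2.

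Single ribosomal protein genes spread widely in Dox 1. RPL21 had 3.31 CPM in Dox 1, 48.1 in Dox 2, 45.1 in DMSO 1 and 46.1 in DMSO 2. RPS27 had 1.65, 18.2, 11.1 and 14.4 CPM in the same order, and RPS26 had 2.32, 19.4, 13.5 and 15.4 CPM. Dox 1 was far below the other libraries in these genes, and Dox 2 was at or above DMSO. RPS7 lay the other way, with 907 CPM in Dox 1 and 419, 491 and 405 CPM in Dox 2, DMSO 1 and DMSO 2. RPL28 was the only ribosomal protein at an unadjusted p-value below 0.05, with 612 and 518 CPM in Dox against 367 and 386 CPM in DMSO and a log2 fold change of 0.59 (standard error 0.24). Both of its Dox libraries lay above DMSO.

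Ribosomal protein genes have many processed pseudogenes with near-identical sequence, and reads that align to more than 1 place were not counted on genes, so these levels are uncertain. RPL21 has 133 pseudogenes named after it in the annotation. Among genes with a mean of at least 100 counts, the 102 with 10 or more such pseudogenes had a median log2 difference from DMSO of -0.25 in Dox 1 and 0.10 in Dox 2, and 39 of them were ribosomal proteins. The 63 others among the 102 had medians of 0.05 and 0.04, and the 6389 genes with 0 named pseudogenes had medians of 0.04 and -0.001. What part unequal loss of multiply aligned reads had in the low values of Dox 1 was not tested.

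**Figure D4:**
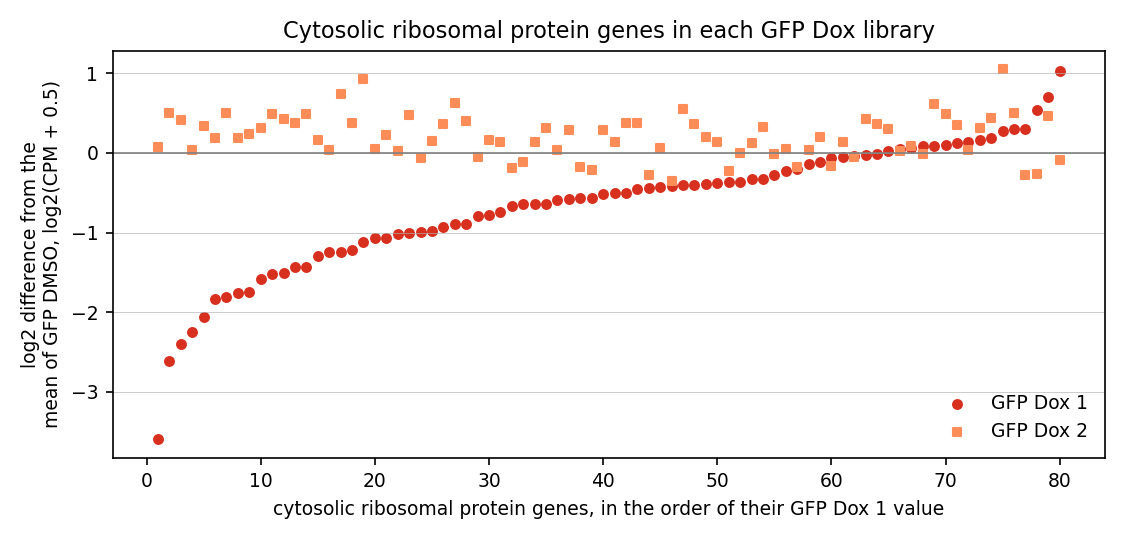
Log2 difference of each of the 80 cytosolic ribosomal protein genes from the mean of the GFP DMSO libraries (vertical axis), in GFP Dox 1 and in GFP Dox 2, with genes in the order of their GFP Dox 1 value. In GFP Dox 1, 64 of the genes lie below 0, down to -3.60 for RPL21, and in GFP Dox 2, 63 lie above 0.

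The 43 translation initiation and elongation factors had a median log2 fold change of -0.06, and by library -0.09 in Dox 1 and 0.02 in Dox 2. EIF2S1, the alpha subunit of the initiation factor that the integrated stress response phosphorylates, was the only member at an unadjusted p-value below 0.05. It had 1498 CPM in Dox 1, 435 in Dox 2, 559 in DMSO 1 and 470 in DMSO 2, so the higher level was in Dox 1 alone and Dox 2 was the lowest of the 4. The log2 fold change of 0.91 (standard error 0.41) was -0.24 without Dox 1.

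The remaining lists had medians of the log2 fold change between -0.14 and 0.16, and at most 1 member per direction at an unadjusted p-value below 0.05. In 24 of the 26 lists the median took the opposite sign when a GFP library was left out. For sterol and fatty acid synthesis the median was 0.12 over 30 genes (0.00058 in Dox 1 and 0.15 in Dox 2), and ACSS2, which makes acetyl-CoA from acetate, had 37.7 and 27.5 CPM in Dox against 16.9 and 21.1 CPM in DMSO, a log2 fold change of 0.78. HSD17B7, of cholesterol synthesis, lay the other way at an unadjusted p-value below 0.05, with 0.331 and 0.740 CPM against 2.22 and 1.67 CPM and a log2 fold change of -1.82 (standard error 0.83). Collagens and matrix proteins had a median of 0.10 with 22 of 30 above 0 (0.06 in Dox 1 and 0.08 in Dox 2), and -0.04 without DMSO 1. Thrombospondin, THBS1, had 210 and 135 CPM against 110 and 117 CPM, a log2 fold change of 0.60, with both Dox libraries above DMSO and Dox 1 farther. The matrix metalloproteinases and their inhibitors had a median of 0.09 over 17 genes (0.16 in Dox 1 and -0.02 in Dox 2), and tetracyclines are also known to inhibit these enzymes directly, which footprints do not measure. RECK, a membrane-bound inhibitor of these enzymes, had 4.80 and 11.1 CPM against 16.5 and 15.8 CPM, a log2 fold change of -1.02, with Dox 1 the lower.

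Among genes of growth, the 36 genes of DNA replication and mitosis had a median of 0.07, by library 0.24 in Dox 1 and -0.11 in Dox 2. Cyclin E2, CCNE2, had 4.96 and 7.99 CPM in Dox against 12.9 and 12.6 CPM in DMSO, a log2 fold change of -0.97. The 55 replication-dependent histones had a median of 0.04, by library -0.04 and 0.004, and H2BC3 had 116 and 138 CPM against 245 and 158 CPM, a log2 fold change of -0.67. In both genes the Dox libraries lay below DMSO. The 28 immediate early genes had a median of 0.02, with -0.20 in Dox 1 and 0.11 in Dox 2, and MYC had 116 and 133 CPM against 119 and 142 CPM.

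Stress and immune lists held 0 genes at an unadjusted p-value below 0.05 in either direction. Their median log2 fold changes were 0.01 for 25 cytosolic chaperones, 0.01 for 20 chaperones of the endoplasmic reticulum, 0.03 for 38 proteasome subunits and 0.10 for 21 targets of NRF2. They were -0.0035 for 21 p53 targets, 0.04 for 17 interferon-stimulated genes, -0.14 for 11 NF-kappaB and inflammatory genes and 0.04 for 21 genes of metal handling, a process that matters here because tetracyclines chelate metal ions. Against the mean of both DMSO libraries, the Dox libraries gave medians of different sign in 7 of these 8 lists. In Dox 1 and Dox 2 the medians were 0.13 and -0.08 for cytosolic chaperones, 0.11 and -0.19 for those of the endoplasmic reticulum, 0.15 and -0.10 for the proteasome, -0.08 and 0.15 for NRF2, -0.18 and 0.01 for p53, -0.15 and 0.14 for interferon and -0.31 and 0.01 for NF-kappaB. In metal handling they were -0.05 and -0.06. The DMSO libraries differed as well, with medians of DMSO 1 minus DMSO 2 from -0.22 for NRF2 to 0.22 for chaperones of the endoplasmic reticulum. The signs with each Dox library set against the DMSO library of its own number were not taken. The NRF2 median of 0.10 was -0.03 without DMSO 1, 0.27 without DMSO 2 and -0.14 without Dox 2. The 25 mSWI/SNF subunits other than SMARCB1 had a median of 0.02 (0.04 in Dox 1 and 0.003 in Dox 2), the 7 rhabdoid and mesenchymal markers that passed the filter 0.12 (0.23 and 0.06), and the 5 muscle markers 0.16 (0.32 and -0.07), also with 0 genes at that p-value. HSP90AB1, a cytosolic chaperone, had 10720 CPM in Dox 1, 5778 in Dox 2, 6244 in DMSO 1 and 6270 in DMSO 2. Its higher level, too, was in Dox 1 alone.

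**Figure D5:**
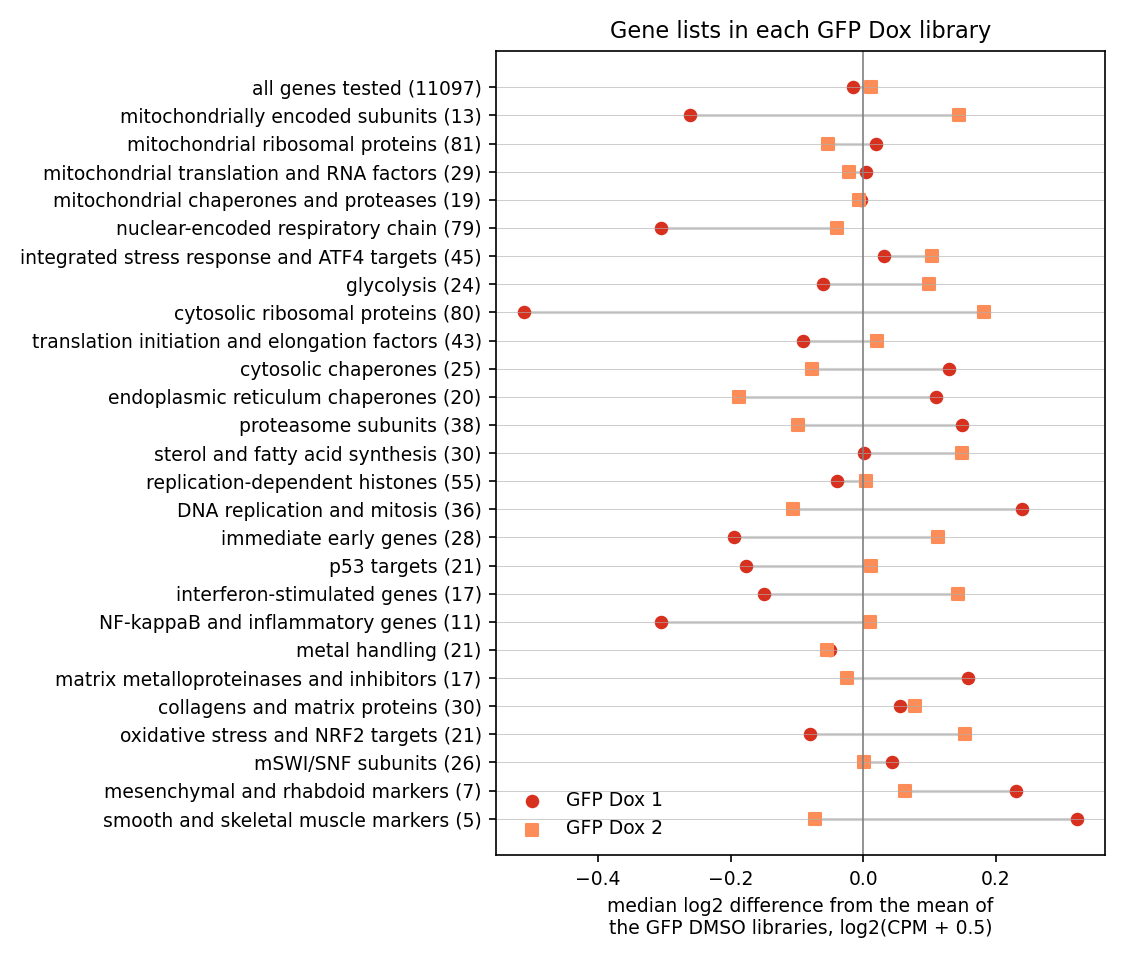
Median log2 difference from the mean of the GFP DMSO libraries for each gene list (horizontal axis, number of genes tested in parentheses), in GFP Dox 1 and GFP Dox 2. The libraries lie farthest apart for cytosolic ribosomal proteins, at -0.51 and 0.18, and all genes tested lie at -0.02 and 0.01.

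Other settings gave calls that rested mostly on Dox 1. Without the filter on low counts, 13 of 14323 genes were called higher (0.0908%) and 1 was called lower (0.00698%) in edgeR's quasi-likelihood test, and the lower one was BEND6. The 13 higher genes included SLC2A5, PCNX2, ZNF880, CABP4, NME3, ZNF500, RAD51AP1 and CRK, and 12 of the 13 lay below the DMSO mean in Dox 2. SLC2A5, the fructose transporter, had 189 counts in Dox 1, 0 in Dox 2, 0 in DMSO 1 and 22 in DMSO 2, and PCNX2 had 143, 0, 2 and 10. Among the GFP libraries the level was high in Dox 1 alone, and DMSO 2 exceeded DMSO 1 in both genes. In the SMARCB1 line, Dox 1, Dox 2, DMSO 1 and DMSO 2 held 1, 61, 4 and 2 counts of SLC2A5 and 6, 33, 8 and 1 of PCNX2, so that 1 library stood high there too.

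With Dox 1 as the only Dox library, edgeR called 101 of 11597 genes higher (0.871%) and 46 lower (0.397%). Of these, 20 of the 101 and 16 of the 46 lay on the same side of DMSO in Dox 2, and 1 of them lay more than 2-fold from it there. Ribosomal proteins made up 11 of the 46, among them RPL21, RPL7, RPS26 and RPS27, and SLIRP was also among the 46. GPR180, a membrane protein, had 0.331 CPM in Dox 1 and 13.9 CPM in Dox 2, against 13.7 and 11.9 CPM in DMSO 1 and DMSO 2. As in RPL21, the level in Dox 2 was that of DMSO.

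The mean of the doxycycline effects in the GFP and SMARCB1 lines was also tested, a value that either line can carry alone. edgeR called 0 genes for this mean and had 249 higher (2.24%) and 135 lower (1.22%) at an unadjusted p-value below 0.05, while DESeq2 called 5 genes, SMARCB1, ASS1, RGS2, MCAM and INSYN1. When genes with low counts were kept, edgeR called 13 for the mean, among them ASS1, RGS2, MCAM, INSYN1, SLC2A5, PCNX2, TENT5B and LARP6. SMARCB1 had 0 counts in the GFP libraries. In the GFP line ASS1, the argininosuccinate synthetase of arginine synthesis, had 17.2 and 18.9 CPM in Dox against 13.2 and 14.1 CPM in DMSO. Its groups were separated, with a log2 fold change of 0.40 (95% interval -0.21 to 1.01) beside 2.16 in the SMARCB1 line. RGS2, a regulator of G-protein signaling, had 41.0 and 39.6 CPM against 58.2 and 42.9 CPM, a log2 fold change of -0.33 (95% interval -0.94 to 0.29) beside -1.92 in the SMARCB1 line. MCAM, an adhesion molecule, had 46.0 and 34.6 CPM against 31.5 and 34.0 CPM, a log2 fold change of 0.30 beside 2.58 in the SMARCB1 line. INSYN1, a protein of inhibitory synapses described here after its values were seen, had 5.63 and 4.44 CPM against 2.14 and 2.29 CPM, a log2 fold change of 1.18 (standard error 0.67, 95% interval -0.26 to 2.61) beside 3.43 in the SMARCB1 line and 1.00 without Dox 1. Both Dox libraries lay above both DMSO libraries in MCAM and INSYN1. In these 4 genes the log2 fold change of the SMARCB1 line was the larger in size. The lines did not start from the same level in MCAM. In the SMARCB1 line it had 53 and 22 counts in Dox and 6 and 6 in DMSO. These were 4.435 and 3.488 CPM against 1.001 and 0.4675 CPM, far below the GFP line, so its fold changes are not like for like. ASS1 lay nearer in the lines, at 9.674 and 9.427 CPM in SMARCB1 DMSO.

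LARP6, an RNA-binding protein that acts on collagen mRNAs, was the gene among the 10 with the smallest p-values for this mean that also had separated groups and an unadjusted p-value below 0.05 in the GFP line. It had 14.2 and 7.10 CPM in Dox 1 and Dox 2 against 3.62 and 4.93 CPM in DMSO 1 and DMSO 2. Both Dox libraries lay above DMSO, Dox 1 farther, and without Dox 1 the log2 fold change in the GFP line was 0.72. The GFP comparison is part of this mean, so the choice by the mean used the same libraries. The small p-value and the separation in the GFP line are therefore no separate evidence. The log2 fold change was 1.31 (standard error 0.48) in the GFP line and 1.74 in the SMARCB1 line, and for the mean of the lines the Benjamini-Hochberg adjusted p was 0.761 in edgeR's quasi-likelihood test, although the gene was called for that mean when genes with low counts were kept.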

How the data were processed

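The authors captured translating ribosomes with the RiboLace kit, aligned footprints with STAR to hg38 and counted them with HTSeq (intersection-strict, coding sequences of GENCODE 42). The deposited values are raw counts per gene. Strand option, adapters, duplicates and ribosomal RNA removal are not stated. The 5 HTSeq summary lines were left out of library sizes. Of 20719 gene IDs, 20408 matched GENCODE 44 (GRCh38) for symbols, positions and coding lengths. In R 4.3.3, edgeR 4.0.16 filtered the 8 libraries with filterByExpr, scaled them with TMM and fitted 1 term per group with glmQLFit, and glmQLFTest tested the contrasts. CPM values use the TMM-scaled totals. DESeq2 1.42.0 was the other test. Intervals of log2 fold changes use the quasi-likelihood error, and ratios from few counts use exact (Clopper-Pearson) binomial intervals at 95%. The code was tested on simulated data.

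Named genes were SMARCB1, the mitochondrially encoded genes, the 12 smallest p-values per direction with separated groups, genes called with or without the filter, the 10 smallest p-values for the mean effect, the genes with the largest differences between the Dox libraries, and per list the most abundant and smallest-p members. The libraries, rule and lists were chosen with earlier results of these data known. Alternatives were other scalings, filters and tests, the GFP libraries alone, a replicate block and leaving out each GFP library.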

Additional observations from a re-analysis of the deposited data

Results flagged for a closer look

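The share of entries aligned to more than 1 place was 56.36% in GFP Dox 1 and 30.45% in GFP Dox 2, and both lay above the 25.6% and 29.26% of the GFP DMSO libraries. These reads are outside the counts on genes. Their part in the gene values was not tested.

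In 4 of the 26 gene lists the median log2 difference from DMSO was above 0 in both GFP Dox libraries and below 0 in both SMARCB1 Dox libraries. Lists were flagged for opposite signs in either direction, and how many lists would show this with no difference between the lines was not tested. For sterol and fatty acid synthesis it was 0.00058 and 0.1488 in GFP Dox 1 and 2 and -0.1619 and -0.1589 in SMARCB1 Dox 1 and 2. Collagens and matrix proteins had 0.05588 and 0.07835 in the GFP line and -0.2784 and -0.1019 in the SMARCB1 line. The mSWI/SNF subunits had 0.04285 and 0.0014 against -0.1519 and -0.07855, and without SMARCB1, which has 0 counts in the GFP libraries, 0.0449 and 0.0028 against -0.1612 and -0.08951. Rhabdoid and mesenchymal markers had 0.2302 and 0.06234 against -0.3698 and -0.1494, on 7 genes. For sterol and fatty acid synthesis and for mSWI/SNF subunits, the sign in 1 GFP library rested on a median of nearly 0. The difference between the lines was not tested for lists, and in each line both Dox libraries were set against the same pair of DMSO libraries. Each group held 2 libraries, and no test was made within groups for a single library that lies far from the rest.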

How the results depend on the processing

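The counts of 0 genes called higher and 0 lower held with edgeR under RLE scaling (251 genes at an unadjusted p-value below 0.05), library size alone (167), robust estimation (238), at least 10 counts per GFP library (183), the replicate block (360) and the GFP libraries alone (151), and with DESeq2 (251). Without the filter the counts were 13 higher and 1 lower, with 458 at an unadjusted p-value below 0.05. For the mean effect and the difference between the lines, the counts of 0 became 13 and 15 without the filter and 5 and 1 with DESeq2. With each GFP library left out in turn, genes called higher ranged from 0 to 101 and genes called lower from 0 to 46, both highest without Dox 2, and genes at an unadjusted p-value below 0.05 from 83 without DMSO 1 to 2000 without Dox 2, with 117 without DMSO 2.

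Of 572 values for the 49 genes with a fitted fold change examined, 9 had the opposite sign of the reported value, 8 of them with a library left out. MT-ND6 was at -0.015 with library size alone. Left-out ranges were -0.29 to 0.46 for MT-CO1, -0.36 to 0.68 for MT-ND6, -0.55 to 0.32 for MT-CYB, -0.24 to 1.54 for EIF2S1 and -0.066 to 0.61 for HSPD1. Of 313 list medians, 44 moved by more than the replicate spread, 34 of them with a library left out. The mSWI/SNF median of 0.02 was also 0.02 without SMARCB1, a setting added after the values were seen. With library size alone, the median of all genes went from 0.02 to -0.06. The cause was not tested for any of these.

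Across genes, the deviations of replicate 1 from its group correlated between groups at between 0.0461 and 0.322 in the 6 possible pairs, 5 of them above 0.1. No shared batch is named, so the reported fit has no block.

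With 2 libraries per group, of which the Dox libraries held fewer counts, genes at 0 have only a bound, and changes under 2-fold were often inside the interval.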

Other observations

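The differences between libraries varied with the GC content of coding sequences. Among the 7824 genes with a mean of at least 100 counts, 4 equal classes by GC content had limits of 44.3%, 50.6% and 57.9%. From the lowest to the highest class, the median log2 difference of GFP Dox 2 from DMSO was -0.17, -0.07, 0.05 and 0.18. Between DMSO 1 and DMSO 2 it was 0.21, 0.08, -0.07 and -0.22, and for GFP Dox 1 from DMSO it was 0.06, 0.07, 0.03 and -0.05. Dox 2 was higher in genes rich in GC, and so was DMSO 2 relative to DMSO 1, while Dox 1 was nearly flat. Coding length showed smaller differences, with medians from the shortest to the longest class of -0.02, 0.003, 0.05 and 0.08 in Dox 1 and of -0.05, -0.01, 0.005 and 0.01 in Dox 2. Their part in the gene and list values was not tested.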
